A study of Mus musculus with 18 samples.

Results

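Polyamines are removed from a cell by acetylation, by oxidation and by carriage across membranes, and 6 genes of these steps were followed in mouse haematopoietic stem cells kept at different pH. The genes were taken by symbol, as 6 of the 21003 gene symbols measured, and no expression value entered the choice. They are Sat1, the acetyltransferase for spermidine and spermine, the oxidases Smox and Paox, and the carriers Slc22a3, Atp13a2 and Slc18b1. RNA came from 18 libraries of 100 sorted cells each, called LT-HSCs (long-term haematopoietic stem cells) in the labels, from mice numbered 1 to 6. Each mouse gave a fresh, uncultured library at pH 7.4, a library after 48 h of culture at pH 7.4 and a library after 48 h at pH 6.9. All groups came from bone marrow of mice of 8 to 12 weeks, given as B6.SJL in the growth protocol and as c57 B6 WT under genotype. Both culture groups were kept in IMDM with 10% fetal bovine serum at 37 °C, 5% CO2 and 3% O2, with cytokines that included SCF and G-CSF at 50 ng/ml. The labels used here do not say whether cells were sorted again after culture. The series title names polyamines as the link between pH and stem cell potential.

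The polyamines putrescine, spermidine and spermine are positively charged small molecules that bind RNA and DNA, and spermidine is the source of the hypusine residue of translation factor eIF5A. Their level is held by synthesis through ornithine decarboxylase, by export and uptake, and by back-conversion, in which acetylated polyamines are oxidised by PAOX while SMOX oxidises spermine directly. Both oxidases release hydrogen peroxide and an aldehyde. Stem cells of the marrow are known to be sensitive to such oxidants.

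The libraries held 1640817 to 7508120 counts, apart from fresh replicate 1 with 6311. Fresh replicate 1 (3035 genes detected), fresh replicate 4 (9408) and pH 6.9 replicate 3 (8925) stood apart from the other 15 libraries, which had 11225 to 12792 genes detected. In each group the odd-numbered mice carry 1 first sequencing index and the even-numbered mice another, and the culture libraries differ by this division. Of 10659 genes tested in the 15 libraries, 18.1% (1924) had a change between pH 6.9 and pH 7.4 that differed between odd- and even-numbered mice, with a median difference of 0.14 (log2) over all genes. This division was known from earlier results of these data to separate the libraries. The share above and the tests of set differences below are therefore not independent evidence for the division. Results are given over all 6 mice with 18 libraries, and within odd- and within even-numbered mice with the 15. Each condition within a set has an index of its own, so that condition and index cannot be told apart. For some genes the cultured libraries of one set resembled those of the other set at the other pH, as the levels of Srm given further on show. Whether the condition labels of one set were exchanged was not tested, and an exchange would turn the directions within that set. Every direction within a set rests on the labels as given. Where libraries of different groups are said not to overlap, the share of all genes that separate likewise was not counted. With so few libraries on a side, such separation can arise by chance for any gene. Values are CPM (counts per 1e+06 of scaled library total). Fold changes and adjusted p come from edgeR's quasi-likelihood test with Benjamini-Hochberg adjustment over all genes, at a threshold of 0.05, and the error of a log2 fold change is its standard error (SE). In bulk RNA of this kind, fewer cells of a type and less RNA per cell cannot be told apart.

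Most of the 10 LT-HSC markers were present in all 15 libraries, among them Procr (4.86 to 51.5 CPM), Slamf1 (1.74 to 39.7) and Hlf (20.9 to 79.4). Fgd5 was at 0 in 1 library and Hoxb5 in 2, with medians of 2.72 and 1.21 CPM over the 15. In fresh replicate 4 and pH 6.9 replicate 3, Slamf1 stood at 1.17 and 0 CPM, Procr at 1.17 and 39.2 CPM and Hlf at 26.3 and 37.41 CPM. Ly6a stood at 2281 and 2142 CPM there, above its highest value of 1086 CPM in the 15, and the LT-HSC sums of 2348 and 2246 CPM were the highest of all libraries. The 10 LT-HSC markers summed to 385 to 630 CPM at pH 7.4 in even-numbered mice, the lowest range of any set. Their sums were 878 to 1510 CPM at pH 7.4 in odd-numbered mice, 1065 to 1416 and 1134 to 1616 CPM at pH 6.9 in odd- and even-numbered mice, and 558 to 850 and 663 to 756 CPM in fresh cells. The 10 granulocyte markers summed to 1615 to 4797 CPM at pH 7.4 in even-numbered mice, and to 5051 CPM in fresh replicate 5, against 28.8 to 259 CPM in the other 11 libraries. Nearly all of that signal was in Mpo, Elane, Ctsg and Prtn3, genes of granule-forming progenitors, while S100a8, S100a9, Camp, Ngp and Ly6g, genes of mature neutrophils, were at 1.61 CPM or less in all 15 libraries and Ltf at 6.64 CPM or less.

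The stretches before the transcription starts of the 3 genes that passed a test between the culture conditions are shown, so that the sequence next to each can be read beside its expression. The sequences are from RefSeq on GRCm38.p6, run 5′ to 3′ on the gene's strand, and leave out bases inside annotated exons. Sat1 (X:155213132-155216449, minus strand) and Slc22a3 (17:12418960-12507704, minus strand) are shown for the 250 bases before the start, at X:155216450-155216699 and 17:12507705-12507954. Smox (2:131491496-131525922, plus strand) is shown for 110 bases at 2:131491654-131491763, which end 99 bases before the start used by RefSeq. GENCODE places an earlier start, so that these bases and the marked match lie inside the Smox gene as annotated there, outside its exons. Capitals mark the match to TGACNNNGC, the core of the antioxidant response element.
Sat1: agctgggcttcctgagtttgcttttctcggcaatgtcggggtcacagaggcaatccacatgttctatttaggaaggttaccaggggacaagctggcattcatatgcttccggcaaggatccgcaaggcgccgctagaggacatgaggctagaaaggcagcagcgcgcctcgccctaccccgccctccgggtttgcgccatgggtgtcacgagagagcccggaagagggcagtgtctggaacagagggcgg
Smox: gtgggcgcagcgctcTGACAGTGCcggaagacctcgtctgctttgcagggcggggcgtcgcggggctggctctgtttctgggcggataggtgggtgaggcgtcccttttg
Slc22a3: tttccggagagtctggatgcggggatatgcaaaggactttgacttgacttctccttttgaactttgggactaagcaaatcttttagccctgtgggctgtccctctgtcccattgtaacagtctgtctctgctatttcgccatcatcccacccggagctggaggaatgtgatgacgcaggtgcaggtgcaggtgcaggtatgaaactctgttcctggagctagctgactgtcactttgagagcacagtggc

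The match in Smox begins 193 bases before the start, on the plus strand. In the 250 bases before the start, both strands were searched for TGACNNNGC, for TATGACTAA (known as the polyamine-responsive element of human SAT1), for the E-box CACGTG, for the cAMP response element TGACGTCA and for TATAAA. The Smox match was the only one in any of the 6 genes. Over 32851 windows of this length the shares with a match were 10.2% for TGACNNNGC, 0.0944% for TATGACTAA, 6.02% for CACGTG, 1.55% for TGACGTCA and 12.4% for TATAAA. A match is a description of the letters in the window.

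All 6 genes were measured well enough to be tested. Per length, Sat1 RNA was the most abundant at 52.3 ± 25.3 CPM per kb of exon (SD, n = 15). Slc22a3 followed at 5.32 ± 3.54 and Smox at 4.86 ± 2.73 CPM per kb, and these neighbours did not differ beyond their spread. Paox stood at 2.44 ± 1.56, Slc18b1 at 1.88 ± 1.35 and Atp13a2 at 1.28 ± 0.762 CPM per kb, again within each other's spread. At pH 6.9 the order changed below Sat1, with Smox at 7.12 ± 2.45 and Slc22a3 at 2.17 ± 1.203 CPM per kb (n = 5), whereas at pH 7.4 Slc22a3 stood at 7.12 ± 3.90 and Smox at 4.35 ± 2.67 (n = 6). In fresh cells Slc22a3 stood at 6.56 ± 2.5, Paox at 3.04 ± 1.14 and Smox at 2.79 ± 0.408 CPM per kb (n = 4).

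**Figure D1:**
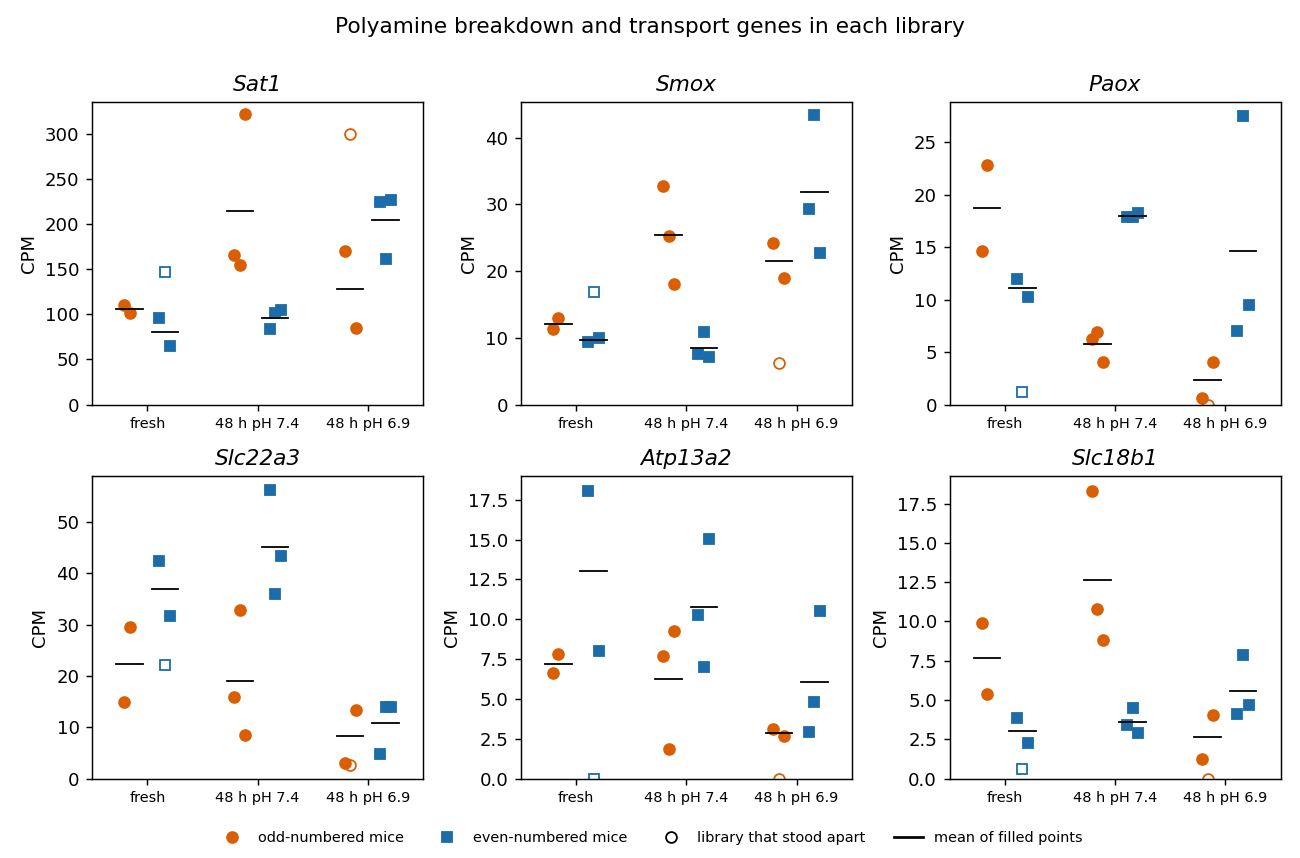
CPM of the 6 genes (vertical axis, from 0) in 17 libraries by group, with odd-numbered mice as circles and even-numbered mice as squares. Black lines are means of the 15 libraries used within sets of mice, open marks are fresh replicate 4 and pH 6.9 replicate 3, and fresh replicate 1 is left out for its 6311 counts. Slc22a3 lies at 14.0 CPM or lower in each pH 6.9 library, and within even-numbered mice Sat1 and Smox are higher at pH 6.9 than at pH 7.4 without overlap, while within odd-numbered mice the 2 conditions overlap.

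Over all 6 mice, none of the 6 genes passed the test in any of the 3 comparisons. The background was the same, with 0% of 10104 genes called at pH 6.9 against pH 7.4, 0% at pH 7.4 against fresh and 0% at pH 6.9 against fresh. At an unadjusted edgeR p under 0.05 there were 254, 381 and 229 of the 10104 genes. Those included Slc22a3 at pH 6.9 against pH 7.4 and against fresh, and Sat1 and Smox at pH 6.9 against fresh. Each of these 3 counts is a smaller share of the 10104 genes than the 0.05 that chance alone would give. DESeq2 called 4, 0 and 0 genes after adjustment and limma-voom 0 in each, with 0 of the 6 genes among these calls. In simulated counts, the edgeR test of pH 6.9 against pH 7.4 over all mice recovered 2.99% of 2-fold changes. A lack of calls over all mice therefore does not show a lack of change.

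Sat1 was higher at pH 6.9 than at pH 7.4 in even-numbered mice, and this change differed between the sets of mice. Spermidine/spermine N1-acetyltransferase, its product, starts polyamine back-conversion and export. Fresh libraries of mice 2, 3, 5 and 6 held 95.6, 111, 101 and 64.6 CPM. At pH 7.4 the odd-numbered mice 1, 3 and 5 held 166, 155 and 323 CPM, and the even-numbered mice 2, 4 and 6 held 83.3, 102 and 104 CPM. At pH 6.9 mice 1 and 5 held 171 and 85.1 CPM, and mice 2, 4 and 6 held 225, 162 and 227 CPM. Within even-numbered mice the 3 libraries at pH 6.9 all lay above the 3 at pH 7.4, whereas in odd-numbered mice the values overlapped. Paired by mouse, Sat1 was higher at pH 6.9 than at pH 7.4 in 4 of 5 mice, namely 1, 2, 4 and 6. Only mouse 5 was lower, and its pH 7.4 library of 323 CPM stood far from the others of its group.

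Within even-numbered mice 6.75% of the 10659 genes were called between pH 6.9 and pH 7.4, and Sat1 was 1 of 3 of the 6 genes called there. Its log2 fold change was 1.08 ± 0.29 (SE, adjusted p = 0.0309). In odd-numbered mice, where 11.1% of genes were called, it was -0.76 ± 0.33 (adjusted p = 0.144), and 0 of the 6 genes were called. The difference between the sets was 1.85 ± 0.44 (adjusted p = 0.00670). With the mouse number as a term, the pH change in even-numbered mice had an adjusted p of 0.0569 and the difference one of 0.0176. Without pH 6.9 replicate 2 or 6, or pH 7.4 replicate 2, 4 or 6, the adjusted p of Sat1 in even-numbered mice was 0.0848, 0.125, 0.118, 0.0660 and 0.0932, and without pH 6.9 replicate 5 that of the difference was 0.0530.

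Against fresh cells, Sat1 rose at pH 6.9 in even-numbered mice by a log2 fold change of 1.35 ± 0.34 (adjusted p = 0.0145), where 10.9% of genes were called. The adjusted p was 0.145 without fresh replicate 6 and 0.0551 without pH 6.9 replicate 6. In odd-numbered mice the value was 0.25 ± 0.35 (adjusted p = 0.813, with 0.6% of genes called), and the difference of 1.10 ± 0.48 did not pass (adjusted p = 0.142, with 12.7% called), but did for Sat1 by limma-voom (0.0389), without a filter (0.0451) and without pH 6.9 replicate 1 (0.0420). At pH 7.4 against fresh, Sat1 stood at 1.01 ± 0.33 in odd-numbered mice (adjusted p = 0.253, with 0.113% called) and at 0.27 ± 0.32 in even-numbered mice (adjusted p = 0.792, with 0.103% called). The difference there was -0.74 ± 0.45 (adjusted p = 0.654, with 0.103% called). The comparisons share the fresh and the pH 6.9 libraries, so they are not separate evidence.

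Smox followed the same division of the libraries as Sat1. Its fold at pH 6.9 against pH 7.4 in even-numbered mice was larger, but the 95% interval of Sat1 (0.52 to 1.65, log2) overlapped that of Smox. The 2 genes were not compared by a test. Spermine oxidase turns spermine into spermidine and releases hydrogen peroxide. Fresh mice 2, 3, 5 and 6 held 9.36, 11.3, 12.9 and 9.91 CPM. At pH 7.4 mice 1, 3 and 5 held 32.8, 25.2 and 18.1 CPM, and mice 2, 4 and 6 held 7.62, 10.9 and 7.13 CPM. At pH 6.9 mice 1 and 5 held 24.2 and 18.9 CPM, and mice 2, 4 and 6 held 29.3, 43.5 and 22.8 CPM. Every pH 6.9 library of the 15 lay above every fresh library, and in even-numbered mice pH 6.9 also lay above pH 7.4 without overlap. How many other genes separate in this way is not known here. Paired by mouse, Smox was higher at pH 6.9 than at pH 7.4 in 4 of 5 mice, namely 2, 4, 5 and 6.

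At pH 6.9 against pH 7.4 in even-numbered mice, Smox had a log2 fold change of 1.89 ± 0.38 (95% interval 1.15 to 2.64, adjusted p = 0.00647). The value in odd-numbered mice was -0.24 ± 0.41 (adjusted p = 0.759), and the difference between the sets was 2.14 ± 0.56 (adjusted p = 0.0128). Leaving out pH 7.4 replicate 6 gave an adjusted p of 0.0539 in even-numbered mice, and leaving out pH 6.9 replicate 5 gave 0.0650 for the difference. Against fresh cells Smox rose at pH 6.9 in even-numbered mice by 1.72 ± 0.44 (adjusted p = 0.0171), with 0.0575 when the mouse number was a term and 0.0507 by limma-voom. That call was also lost without fresh replicate 2 (0.123), fresh replicate 6 (0.0879) or pH 6.9 replicate 4 (0.0670), all adjusted p of Smox. In odd-numbered mice the value against fresh was 0.82 ± 0.46 at pH 6.9 (adjusted p = 0.457) and 1.06 ± 0.42 at pH 7.4 (adjusted p = 0.377).

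Among cultured cells, the means of Sat1 (96.5 ± 11.5 CPM, SD, n = 3) and Smox (8.54 ± 2.03 CPM) were lowest in even-numbered mice at pH 7.4, which is also the set with the lowest LT-HSC sums and the high granulocyte sums. The part of that cell content in the Sat1 and Smox results was not tested. In the 2 deeper libraries that stood apart, Sat1 had 147 CPM in fresh replicate 4 and 300.2 CPM in pH 6.9 replicate 3, and Smox had 16.93 and 6.23 CPM. Fresh replicate 1 had 1 count of Sat1 and 0 of the other 5 genes, which allows up to 243 CPM. When all 18 libraries were used within the sets, the adjusted p at pH 6.9 against pH 7.4 in even-numbered mice was 0.853 for Sat1 and 0.438 for Smox, with log2 fold changes of 1.10 and 1.91. The adjusted p was 0.228 and 0.174 against fresh, and 0.285 and 0.0987 for the difference between sets at pH 6.9 against pH 7.4.

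Paox was the oxidase that did not follow Smox. N1-acetylpolyamine oxidase, its product, oxidises the acetylated polyamines made by SAT1. Fresh mice 2, 3, 5 and 6 held 11.9, 14.6, 22.9 and 10.2 CPM. At pH 7.4 mice 1, 3 and 5 held 6.27, 6.94 and 4.01 CPM, and mice 2, 4 and 6 held 17.9, 17.8 and 18.3 CPM. At pH 6.9 mouse 1 held 0.620 CPM from 1 count, mouse 5 held 4.03 CPM, and mice 2, 4 and 6 held 7.03, 27.5 and 9.53 CPM. In odd-numbered mice each cultured library lay below each fresh one, while in even-numbered mice pH 7.4 lay above fresh and pH 6.9 spread over both.

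At pH 6.9 against fresh, the difference between the sets of mice was 3.16 ± 0.94 for Paox (log2, adjusted p = 0.0336), made of -2.75 ± 0.72 in odd-numbered mice (adjusted p = 0.0959) and 0.42 ± 0.61 in even-numbered mice (adjusted p = 0.736). The value of Paox in odd-numbered mice passed with DESeq2 (adjusted p = 0.0167) and without a filter (0.0160). The adjusted p of the Paox difference was 0.131 with the mouse number as a term, 0.0895 by limma-voom and 0.0580 with all 18 libraries. Leaving out fresh replicate 2, 3, 5 or 6 moved it to 0.0914, 0.0665, 0.0925 or 0.0870 for Paox, and leaving out pH 6.9 replicate 1 or 4 to 0.0918 or 0.0930. Between pH 6.9 and pH 7.4 the Paox values were -1.06 ± 0.67 in odd-numbered mice (adjusted p = 0.334) and -0.28 ± 0.53 in even-numbered mice (adjusted p = 0.828). Fresh replicate 4 had 2 counts of Paox and pH 6.9 replicate 3 had 0. Paox (7:140115799-140137224, plus strand) shares 142 exon bases, or 2.89% of its exons, with Echs1 on the opposite strand, and the library kit keeps no strand. Echs1 had 1 to 1188 counts over the 18 libraries, and its part in the Paox counts was not tested.

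**Figure D2:**
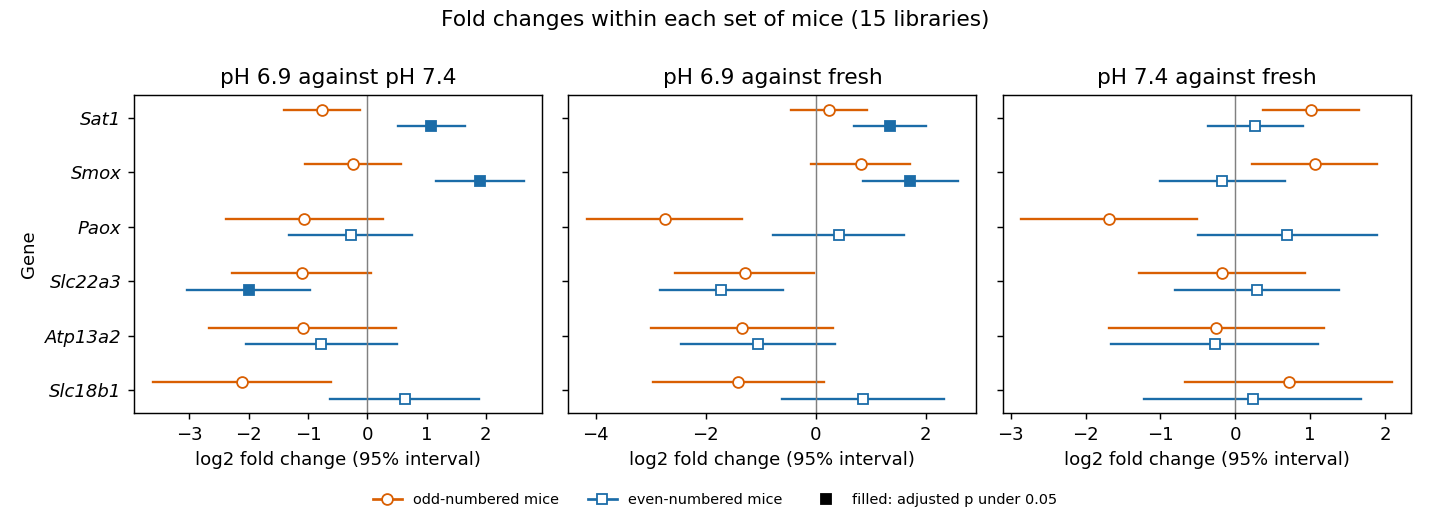
Log2 fold changes with 95% intervals (horizontal axis) of the 6 genes within odd-numbered (circles) and even-numbered mice (squares) over 15 libraries, for the 3 comparisons. Filled marks passed the threshold: Sat1, Smox and Slc22a3 at pH 6.9 against pH 7.4 and Sat1 and Smox at pH 6.9 against fresh, each in even-numbered mice.

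Slc22a3 was low at pH 6.9 in both sets of mice. It encodes organic cation transporter 3, which carries polyamines, histamine and other amines across the plasma membrane and has been studied in basophils. Fresh mice 2, 3, 5 and 6 held 42.3, 14.9, 29.6 and 31.7 CPM. At pH 7.4 mice 1, 3 and 5 held 15.9, 32.9 and 8.43 CPM, and mice 2, 4 and 6 held 56.2, 35.9 and 43.4 CPM. At pH 6.9 mice 1 and 5 held 3.10 and 13.3 CPM, and mice 2, 4 and 6 held 4.69, 13.9 and 14.0 CPM. Every pH 6.9 library of the 15 lay below every fresh library, and in even-numbered mice also below pH 7.4, while in odd-numbered mice mouse 5 was higher at pH 6.9 than at pH 7.4.

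The mean of Slc22a3 over the 15 libraries was 9.80 ± 5.43 CPM at pH 6.9 (SD, n = 5), 32.1 ± 17.6 at pH 7.4 (n = 6) and 29.6 ± 11.3 in fresh cells (n = 4). In even-numbered mice Slc22a3 fell at pH 6.9 against pH 7.4 by a log2 fold change of -2.00 ± 0.53 (95% interval -3.03 to -0.97, adjusted p = 0.0292). In odd-numbered mice it was -1.11 ± 0.60 (adjusted p = 0.252), and the difference of -0.89 ± 0.78 did not pass (adjusted p = 0.471, 95% interval -2.42 to 0.63). Against fresh cells Slc22a3 had -1.71 ± 0.57 in even-numbered mice (adjusted p = 0.0602, with 0.0280 by DESeq2 and 0.00407 without a filter) and -1.29 ± 0.64 in odd-numbered mice (adjusted p = 0.393). Between pH 7.4 and fresh it had 0.29 ± 0.56 and -0.18 ± 0.56 in even- and odd-numbered mice, with adjusted p of 0.882 and 0.951.

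Over all 18 libraries the log2 fold change of Slc22a3 at pH 6.9 was -1.83 ± 0.51 against pH 7.4 (adjusted p = 0.997, unadjusted p = 0.00158) and -1.61 ± 0.52 against fresh (adjusted p = 0.99995). As the mean of both sets in the 15 libraries it was -1.55 ± 0.40 against pH 7.4 (adjusted p = 0.114) and -1.50 against fresh (adjusted p = 0.213). It was lower at pH 6.9 than at pH 7.4 in 4 of 5 mice, and lower than in fresh cells in 3 of 3. The call in even-numbered mice was lost for Slc22a3 without pH 6.9 replicate 2 (0.0957), 4 (0.0644) or 6 (0.0881) and without pH 7.4 replicate 2 (0.103) or 6 (0.100), as adjusted p, and with all 18 libraries (0.655). The 2 libraries that stood apart held 38 counts (22.2 CPM, fresh replicate 4) and 3 counts (2.67 CPM, pH 6.9 replicate 3) of Slc22a3.

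Between the culture conditions, the summed markers of granule-forming and of mast or basophil cells moved with Slc22a3 in even-numbered mice but not in odd-numbered mice. The 10 granulocyte markers summed to 1615 to 4797 CPM at pH 7.4 and 28.8 to 50.4 CPM at pH 6.9 in even-numbered mice. In odd-numbered mice they went the other way, with 40.0 to 71.7 CPM at pH 7.4 and 163 to 165 CPM at pH 6.9. The 10 mast cell or basophil markers summed to 47.1 to 204 CPM at pH 7.4 and 2.93 to 24.4 CPM at pH 6.9 in even-numbered mice, and to 4.68 to 102 and 20.4 to 21.1 CPM in odd-numbered mice. Among them Prss34 and Mrgprb1 were at 0 in all 15 libraries, Mcpt8 in 9, Gzmb in 5, Il1rl1 in 4 and Cpa3 in 1, and Cpa3 reached 103 CPM and Mcpt8 150 CPM. In fresh cells of even-numbered mice, Slc22a3 held 42.3 and 31.7 CPM with mast cell or basophil sums of 8.72 to 8.95 CPM and granulocyte sums of 104 to 259 CPM. In fresh cells of odd-numbered mice, replicate 5 held 29.6 CPM of Slc22a3 with sums of 203 and 5051 CPM, and replicate 3 held 14.9 CPM with sums of 3.07 and 72.3 CPM. Whether such cells were present, and their part in the Slc22a3 result, was not tested. Slc22a3 shares 420 exon bases, or 9.31% of its exons, with Plg on the opposite strand, and Plg had 0 counts in every library.

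**Figure D3:**
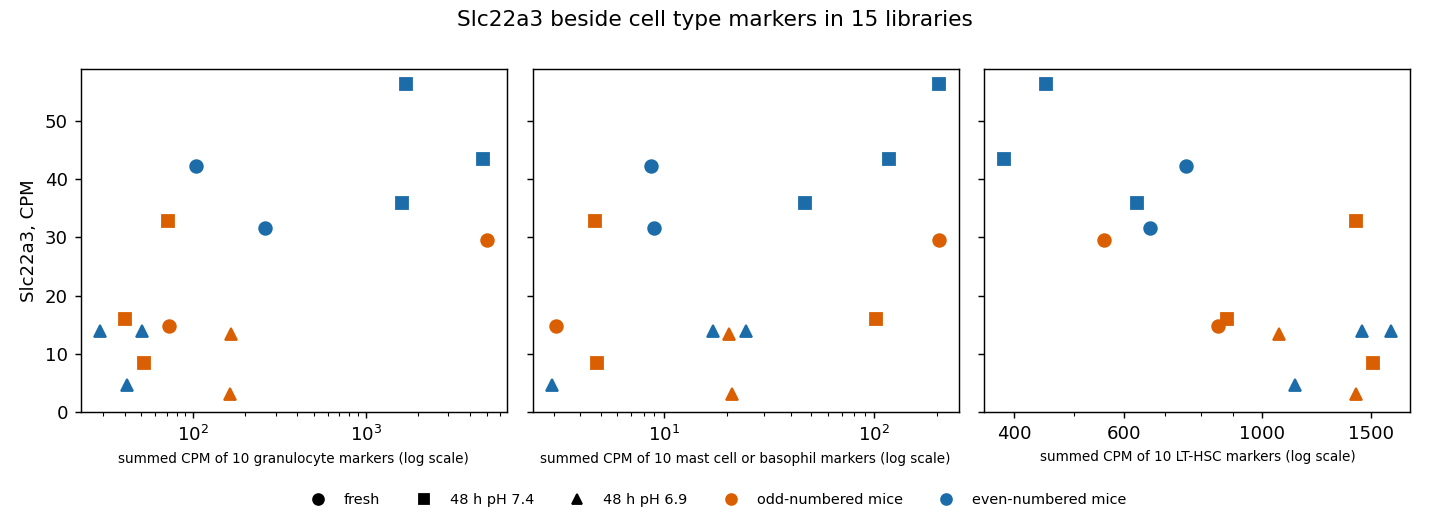
Slc22a3 in CPM (vertical axis) against the summed CPM of 10 markers (horizontal log axes) of granulocytes, mast cells or basophils and LT-HSCs in 15 libraries, with shapes for the groups and colours for the sets of mice. The pH 6.9 libraries (triangles) hold 3.10 to 14.0 CPM of Slc22a3, and fresh even-numbered mice hold 31.7 and 42.3 CPM with granulocyte sums of 104 to 259 CPM.

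Neither of the vesicle and lysosome carriers passed edgeR's test. Atp13a2 encodes a lysosomal ATPase that moves spermine and spermidine out of the lysosome. Fresh mice 2, 3, 5 and 6 held 18.1, 6.61, 7.80 and 7.99 CPM. At pH 7.4 mice 1, 3 and 5 held 7.72, 1.84 and 9.23 CPM, and mice 2, 4 and 6 held 10.2, 6.98 and 15.1 CPM. At pH 6.9 mice 1 and 5 held 3.10 and 2.64 CPM, and mice 2, 4 and 6 held 2.93, 4.83 and 10.51 CPM. Over all mice and in even-numbered mice the groups overlapped, while in odd-numbered mice the pH 6.9 libraries of the 15 lay below the fresh ones. Atp13a2 was higher at pH 6.9 than at pH 7.4 in 0 of the 5 mice with both libraries.

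Its log2 fold change at pH 6.9 against pH 7.4 was -1.09 ± 0.80 in odd-numbered mice (adjusted p = 0.417) and -0.77 ± 0.65 in even-numbered mice (adjusted p = 0.546), and -1.01 ± 0.74 over 18 libraries (adjusted p = 0.997). The interval over 18 libraries ran from -2.45 to 0.44. Counts of Atp13a2 were 5 to 93 in the 15 libraries and 0 in fresh replicate 4 and pH 6.9 replicate 3.

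Slc18b1 encodes a vesicular polyamine transporter, known from secretory vesicles of brain and mast cells. Fresh mice 2, 3, 5 and 6 held 3.87, 9.92, 5.38 and 2.24 CPM. At pH 7.4 mice 1, 3 and 5 held 18.3, 10.8 and 8.83 CPM, and mice 2, 4 and 6 held 3.42, 4.46 and 2.92 CPM. At pH 6.9 mice 1 and 5 held 1.24 and 4.03 CPM, and mice 2, 4 and 6 held 4.10, 7.85 and 4.67 CPM. In odd-numbered mice the pH 6.9 libraries lay below the pH 7.4 libraries without overlap.

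The log2 fold change of Slc18b1 was -2.12 ± 0.77 there (adjusted p = 0.0820) and 0.63 ± 0.64 in even-numbered mice (adjusted p = 0.632), with a difference of 2.75 ± 0.99 (adjusted p = 0.0622). DESeq2 gave adjusted p of 0.0374 for Slc18b1 in odd-numbered mice and 0.0295 for its difference. Counts of Slc18b1 were 2 to 76 in the 15 libraries, 1 in fresh replicate 4 and 0 in pH 6.9 replicate 3.

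Most other genes of polyamine breakdown and transport were scarcely present in these cells. Of 14 such genes, 4 were tested in the 15 libraries and 0 were called in any comparison. Slc3a2, a subunit of amino acid and polyamine exchangers, had 327 CPM on average, Atp13a3, the plasma-membrane relative of Atp13a2, 22.6 CPM, Hdac10, the deacetylase of acetylspermidine, 18.1 CPM, and the proteoglycan gene Gpc1 1.74 CPM. Sat2, a relative of Sat1, stood at 0.698 CPM and Slc12a8 at 0.282 CPM. Aoc1, Satl1, Atp13a4, Atp13a5 and Cav1 were listed at 0 in all 15 libraries.

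Of 14 genes of polyamine synthesis and antizymes, 10 were tested, and 2 of them, Srm and Odc1, passed in both sets of mice with opposite directions. At pH 6.9 against pH 7.4, Srm (spermidine synthase) and Odc1 (ornithine decarboxylase) rose in odd-numbered mice by 1.41 ± 0.24 and 0.82 ± 0.17 (log2, adjusted p = 0.00161 and 0.00709). In even-numbered mice Srm and Odc1 fell, with -1.71 ± 0.22 and -0.72 ± 0.16 (adjusted p = 0.000495 and 0.0110), and both also fell against fresh there, with -1.87 ± 0.24 and -1.06 ± 0.17. The levels of Srm were 284 ± 26.6 CPM at pH 7.4 and 753 ± 34.1 at pH 6.9 in odd-numbered mice, and 729 ± 97.4 and 224 ± 54.3 in even-numbered mice (SD, n = 3, 2, 3 and 3). The odd-numbered mice at pH 7.4 thus lay near the even-numbered mice at pH 6.9, and the reverse. The difference between sets passed for 4 of the 10 genes, where 18.1% of all genes passed, upwards for the antizyme Oaz2 (1.38 ± 0.35) and downwards for Srm (-3.12 ± 0.32), Odc1 (-1.54 ± 0.24) and the salvage enzyme Mtap (-1.25 ± 0.29), with adjusted p from 1.55e-05 for Srm to 0.0112 for Oaz2. Over all 6 mice 0 of the 10 were called. The list's median log2 fold change was 0.10 in odd-numbered mice, where that of all genes was -0.08, and -0.59 in even-numbered mice, where that of all genes was 0.04. For the 6 genes of breakdown and transport the medians were -1.08 and 0.18.

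Enzymes that clear hydrogen peroxide and aldehydes, the by-products of the 2 oxidases, were divided between both directions. All 20 listed genes were tested. In odd-numbered mice at pH 6.9 against pH 7.4, where 11.1% of all genes were called, 3 rose, Txn2 (1.001 ± 0.20), Prdx6 (0.89 ± 0.20) and Prdx2 (0.68 ± 0.19), which are thioredoxin and peroxiredoxin genes, and 2 fell, Cat (catalase, -1.51 ± 0.24, adjusted p = 0.00102) and the aldehyde dehydrogenase Aldh2. In even-numbered mice 0 of 20 were called between pH 6.9 and pH 7.4, where 6.75% of all genes were, while against fresh Cat (1.43 ± 0.23) and Aldh3a2 (1.71 ± 0.36) rose and Txn2 fell (-0.81 ± 0.20). The change with pH differed between the sets for 8 of the 20, against 18.1% of all genes, upwards for Cat (2.10 ± 0.31), Aldh2 (2.32 ± 0.49) and Aldh3a2 and downwards for Txn2, Prdx6, Prdx2, Prdx1 and Prdx3. Cat stood at 530 ± 63.5 and 392 ± 23.9 CPM at pH 7.4 and at 185 ± 52.4 and 589 ± 133 CPM at pH 6.9, in odd- and even-numbered mice. Smox and Sat1 thus had a difference of the same sign as Cat, Aldh2, Aldh3a2 and Oaz2, and of the opposite sign to Srm and Odc1.

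**Figure D4:**
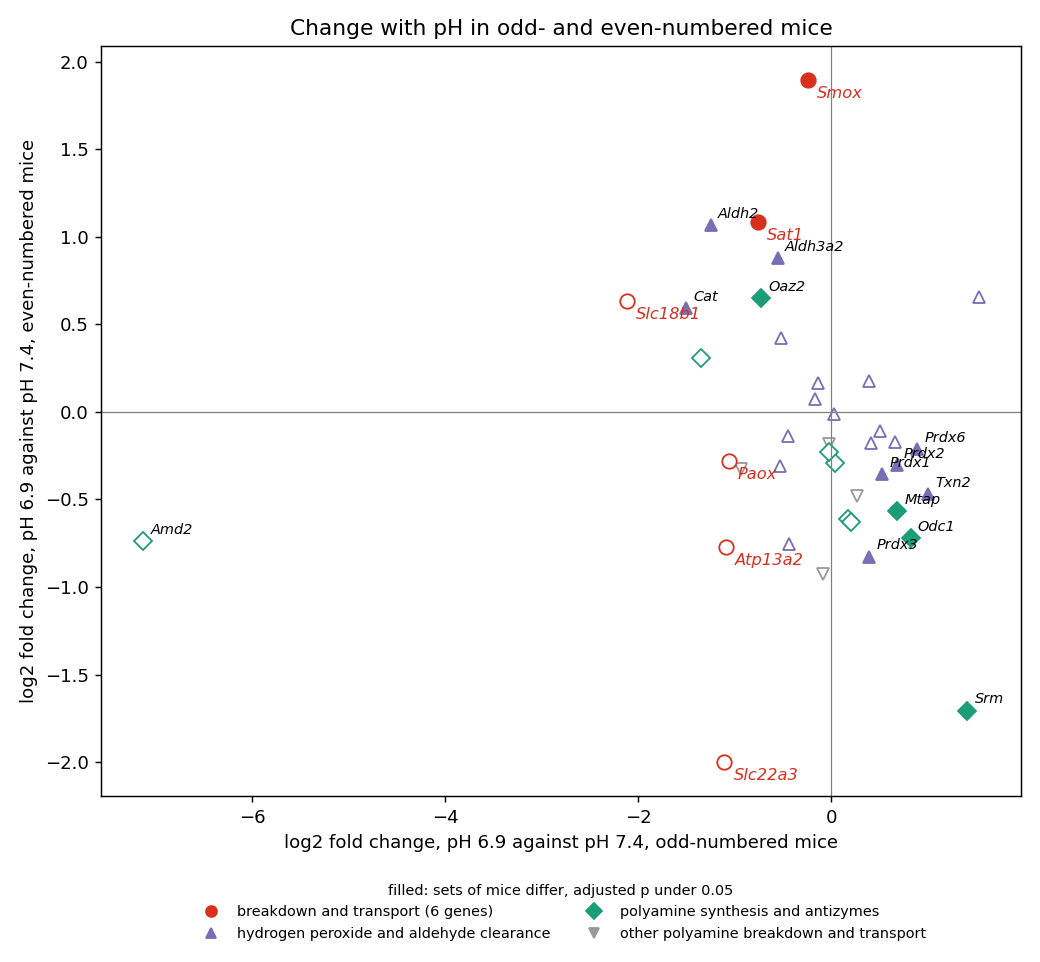
Log2 fold change at pH 6.9 against pH 7.4 in odd-numbered (horizontal axis) and even-numbered mice (vertical axis) for the 6 genes and the tested genes of 3 lists. Filled marks are genes whose change differed between the sets, with Sat1, Smox, Cat and Aldh2 at the upper left and Srm and Odc1 at the lower right, and Amd2 lies far to the left with a mean of 3.27 CPM.

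The genes whose log2 CPM was most like that of each of the 6 over the 15 libraries were found among 8252 genes with a mean of at least 10 CPM. Sat1 was closest to Map1lc3b, an autophagy gene (Pearson r = 0.975), Rit1 (0.958) and Pon3 (0.947). Smox was closest to Adssl1 (0.920), the haem oxygenase gene Hmox1 (0.917) and Tk2 (0.911), and Paox to Haspin (0.922), Shcbp1 (0.921) and Ap1g2 (0.916). Slc22a3 was closest to the histone methyltransferase gene Suv39h1 (0.930) and the nuclear pore genes Ndc1 (0.881) and Nup93 (0.858). For Atp13a2 the closest were Ccdc93 (0.8294), Dpy19l3 (0.787) and Shld2 (0.765), and for Slc18b1 Poglut3 (0.881), Cpsf2 (0.867) and Stx3 (0.860). These r describe libraries that share sets and depth, and they were picked as the highest of 8252.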

How the data were processed

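Each library was made from 100 LT-HSCs with the SMART-Seq v4 Ultra Low Input kit and Nextera XT, and sequenced as 75 bp paired ends, per the labels' protocols. The values deposited by the authors are estimated counts per gene symbol, all whole numbers, and kallisto and mm10 are named without a version or role per the submitters' processing notes. The labels do not say how transcripts were summed to genes. Here the counts were tested with edgeR 4.0.16 (R 4.3.3) by its robust quasi-likelihood method after filterByExpr and TMM scaling, with 1 coefficient per group over 18 libraries (10104 genes), or per group and set of odd- or even-numbered mice over 15 libraries (10659 genes). To enter the 15, a library needed 1e+05 counts and 10000 detected genes. CPM use the TMM factors of the 15 libraries. Intervals are 1.96 SE to each side, and floors for a count of 0 are 3 counts, which cover counting error only because the libraries have no molecular identifiers. The labels number 6 individual mice, so libraries are paired across groups. The mouse number as a term is an alternative, and the deviations of 12 same-mouse pairs correlated at -0.0959 to 0.157 across genes (median 0.0288).

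The members, gene lists, markers and tests were chosen with earlier results of these data known. Text names all 6 members, up to 4 called genes per list and comparison by smallest adjusted p, and 3 genes most like each member. Mpo, Elane and other marker genes, untested or low list genes and the further called list genes were named after their values were seen. Coordinates are from GENCODE M21 on mm10, and all 6 genes matched the RefSeq promoter table. Alternatives were DESeq2 1.42.0 and its size factors, limma-voom 3.58.1 with quality weights, no filter, a filter of 5 CPM in 3 libraries, other sets of libraries, and leaving out each library. Scripts were tested on simulated counts with known changes at pH 6.9 against pH 7.4. Over all mice, 1.49% of 1.5-fold, 2.99% of 2-fold and 71.2% of 4-fold changes were recovered, with 3 false calls. In even-numbered mice these shares were 2.99%, 32.8% and 81.8%, with 9 false calls.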

Additional observations from a re-analysis of the deposited data

Results flagged for a closer look

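In 36 groups of 4 to 6 libraries that were looked at, 5 had 1 library far from the others, and chance gives about 1 in 20. Sat1 in pH 7.4 replicate 5 stood at 323 CPM, far from the others of its group, which counts for all 6 and for the same libraries among the 15. Paox in pH 6.9 replicate 4 stood at 27.5 CPM. Atp13a2 stood at 18.1 CPM in fresh replicate 2 and at 10.51 CPM in pH 6.9 replicate 6.

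The change between pH 6.9 and pH 7.4 differed between odd- and even-numbered mice for Sat1 (edgeR adjusted p = 0.00670) and Smox (0.0128), and the change between pH 6.9 and fresh differed for Paox (0.0336). The same differences were found for 18.1% and 12.7% of all genes.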

How the results depend on the processing

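Of 72 pairs of a gene and a comparison 8 were called, and in 176 recomputed values of these none changed sign and 139 stayed past the threshold. Many of the 176 left out a library that is not part of the comparison, so the 139 do not measure how firm the calls are. Of 15 fits that each left out 1 library, 5 lost the Sat1 call at pH 6.9 against pH 7.4 in even-numbered mice. The Slc22a3 call there was lost in 5 of 15, and the Paox difference at pH 6.9 against fresh in 6 of 15. With all 18 libraries the count of genes called was 0 at pH 6.9 against pH 7.4 in even-numbered mice, 0 for its difference between sets, and 0 and 0 for pH 6.9 against fresh in even-numbered mice and its difference. With the replicate block these last counts were 1 and 0, and the block changed no other count by over 1.5 times, while it also ended the Sat1 call at pH 6.9 against pH 7.4 in even-numbered mice. limma-voom gave 1 at pH 6.9 against fresh in even-numbered mice. DESeq2 gave 1 in odd-numbered mice at pH 6.9 against pH 7.4 (Slc18b1) and 1 against fresh (Paox). Without a filter the counts were 1, 1 and 1 in odd-numbered mice (Sat1 at pH 6.9 against pH 7.4 and at pH 7.4 against fresh, Paox at pH 6.9 against fresh) and 2 (Paox and Sat1) for the difference at pH 6.9 against fresh. Leaving out 1 library gave 0 to 3 genes at pH 6.9 against pH 7.4 and 0 to 3 against fresh in even-numbered mice, and 0 to 2 and 0 to 1 for the differences. The cause was not tested. The share of all genes called in each of these alternative fits is not given here. A loss or gain particular to the 6 genes therefore cannot be told from a general one.

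Uncalled log2 fold changes that changed sign were these. For Atp13a2 at pH 7.4 against fresh over all mice they were -0.25 (15 libraries), -0.26 (mean of both sets) and -0.057 (replicate block), for its difference 0.47 (18 libraries), 0.89 (limma-voom) and 0.59 (replicate block), and in even-numbered mice 0.28 (18 libraries). For the Atp13a2 difference at pH 6.9 against pH 7.4 limma-voom gave -0.47. At pH 6.9 against fresh, Paox in even-numbered mice had -0.063 and Slc18b1 over all mice 0.021 with the replicate block, Sat1 in odd-numbered mice -0.020 with limma-voom, and the Slc22a3 difference 0.084 with 18 libraries. At pH 7.4 against fresh, Sat1 in even-numbered mice had -0.092 with 18 libraries, Slc22a3 in odd-numbered mice 0.040 with limma-voom and 0.088 with the replicate block, and limma-voom gave -0.23 for Slc18b1 and -0.22 for Smox over all mice. Slc18b1 at pH 6.9 against pH 7.4 over all mice was 0.070 with limma-voom.

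Leaving out 1 library, uncalled values that changed sign ranged as follows. Atp13a2 ranged from -0.37 to 0.99 and from -0.34 to 0.82 for the differences at pH 6.9 against fresh and against pH 7.4, and at pH 7.4 against fresh from -0.24 to 0.59 (all mice), -0.51 to 0.68 (difference), -0.74 to 0.43 (even) and -0.69 to 0.24 (odd). Paox ranged from -0.40 to 0.73 (pH 6.9 against fresh, even), -0.029 to 2.88 and -1.09 to 0.032 (pH 6.9 against pH 7.4, difference and even) and -0.31 to 0.33 (pH 7.4 against fresh, all mice). Sat1 ranged from -0.32 to 0.69 (pH 6.9 against fresh, odd), and Slc18b1 from -0.57 to 0.31 (pH 6.9 against fresh, all mice) and -0.11 to 0.68 (pH 7.4 against fresh, even). Slc22a3 ranged from -1.002 to 1.11 and -1.58 to 0.65 for the differences at pH 6.9 against fresh and pH 7.4, and at pH 7.4 against fresh from -0.0013 to 0.43 (all mice), -0.11 to 1.16 (difference) and -0.87 to 0.40 (odd). Counts in single libraries of the 15 went down to 1 for Paox, 2 for Slc18b1 and 5 for Slc22a3 and Atp13a2.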
